A study of Mus musculus with 14 samples.

Results

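The lungs of BALB/c mice carrying a 67NR tumour were compared with the lungs of control mice across all genes of an Affymetrix mouse array. All arrays whose sample titles name the non-metastatic tumour or normal lung were used, which gave 5 67NR and 5 normal arrays, 10 of the 14 in the series. Mice of the first group received 67NR mouse breast carcinoma cells in the fourth mammary fat pad. Control mice of the same strain received PBS without cells and are called normal here. Lungs were taken after the blood vessels had been flushed with PBS. In tumour-bearing mice this was 6 days after inoculation, or at a tumour volume of about 50 mm3. No day is recorded for the normal samples. The 4 other arrays came from lungs of mice given metastatic 4T1 cells. They share in the estimate of scatter, the choice of probe set and the level filter. Otherwise they are used for a direct comparison with 67NR and, for Mcpt8, with normal lung. The labels give no age or sex, do not say that each sample came from its own mouse, and give no hour of collection, so the tests speak only of the scatter among these arrays, which may be technical.

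The 67NR and 4T1 lines are sister lines from a single mammary tumour of a mouse of BALB/c background. 67NR cells grow in the fat pad and do not form nodules in distant organs, whereas 4T1 cells spread to the lung. A primary tumour can change the lung before any tumour cell grows there, through factors that act on bone marrow, blood vessels and matrix. The 67NR lung is therefore a reference for what a tumour does to a distant lung without metastasis.

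Median intensity lay between 113 and 116 on the 10 arrays and the upper quartile between 431 and 436. Defining genes of the lung were bright on every array. Sftpc, the surfactant protein of alveolar type 2 cells, lay at 12.72 to 13.11 on the log2 scale in 67NR and 12.73 to 13.17 in normal lung. Ager, a receptor of alveolar type 1 cells, lay at 13.17 to 13.25 and 13.10 to 13.29. In whole tissue, fewer cells of a type and less RNA per cell cannot be told apart.

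Most genes differed little between 67NR and normal lung. Levels are log2 values of the intensity plus an offset of 16, and changes are differences of group means on that scale, 67NR minus normal. Of 10916 genes tested in the upper 60% of mean level, 99.5% had a change between -0.5 and 0.5. The 5th and 95th percentiles of the change were -0.17 and 0.17. A gene of median precision had a 95% interval of 0.147 to either side of its change. At an adjusted p under 0.05 (limma, Benjamini-Hochberg) 0 genes were called, 0% higher and 0% lower, and the smallest adjusted p was 0.207. At an unadjusted p under 0.05 there were 997 genes, 9.13% of those tested, of which 504 (4.62%) were higher and 493 (4.52%) lower. The values of 67NR and normal arrays did not overlap for 93 genes higher in 67NR (0.852%) and 87 lower (0.797%), 180 in all (1.65%).

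Changes larger than 1 in size were found for 5 tested genes. Spon2, a secreted matrix protein of the spondin family that was named after its values were seen, had a change of 1.21. Its levels were 10.02, 8.02, 9.66, 8.05 and 7.61 in 67NR replicates 1 to 5 and 7.59, 7.02, 7.0, 8.06 and 7.63 in normal replicates 1 to 5. Replicates 1 and 3, the arrays on which Dbp was also lowest, stood above every normal array, and replicates 2, 4 and 5 lay within the normal range. A dimmer Spon2 probe set moved less, with 7.73, 7.30, 7.36, 7.16 and 7.33 in 67NR and 7.19, 7.33, 6.99, 7.16 and 7.17 in normal lung. The 4 other genes were the clock genes Dbp, Hlf, Per2 and Per3, with negative changes.

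**Figure D1:**
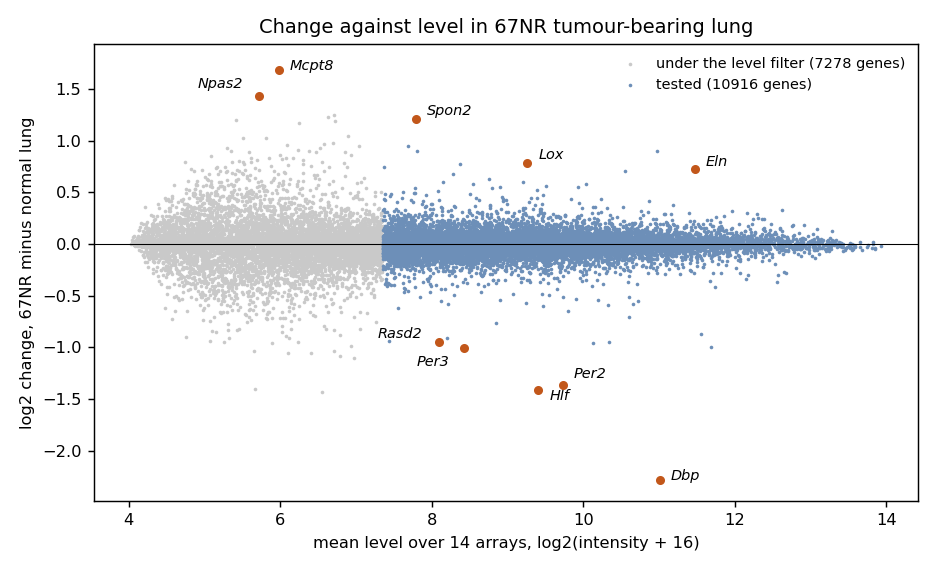
Each point is 1 of 18194 genes, with its mean level over 14 arrays on the x axis and its log2 change, 67NR minus normal lung, on the y axis; 10916 genes were tested and the paler ones lay under the level filter. The cloud is centred on 0, the clock genes Dbp, Hlf, Per2 and Per3 stand below it, and Mcpt8 and Npas2 stand above it among the dim genes.

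Mcpt8 was the 1 gene that passed when all 18194 genes were fitted without the level filter, 0.0055% of them, and it was higher in 67NR lung. It encodes mast cell protease 8, a granule protease of mouse basophils. Its levels were 6.39, 6.63, 6.09, 6.93 and 6.02 in 67NR replicates 1 to 5 and 4.48, 4.76, 4.79, 4.75 and 4.87 in normal replicates 1 to 5. All 5 67NR arrays stood above all 5 normal arrays. The log2 change was 1.68 (SE 0.18, 3.20-fold, limma adjusted p = 0.00791 over all genes). With all 45037 probe sets fitted, its probe set was again the 1 that passed (adjusted p = 0.0220), 0.00222% of them.

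The intensity of Mcpt8 was low. It ran from 49.0 to 106 in 67NR lungs, under the median intensity of those arrays, and from 6.34 to 13.3 in normal lungs. No detection calls were used here, so the normal level cannot be told from background, and the size of the change depends on the offset. It was 2.61 with an offset of 1 (adjusted p = 0.00231) and 0.84 with an offset of 64, where it no longer passed (adjusted p = 0.115). Over 14 fits that each left out 1 array the adjusted p lay between 0.00312 and 0.0438.

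Other genes of basophils and mast cells did not pass. Cd200r3, a receptor of basophils and mast cells, had levels of 5.17, 4.31, 5.70, 5.73 and 4.96 in 67NR and 4.30, 4.28, 4.23, 5.26 and 4.26 in normal lung, with overlapping groups and a change of 0.71 (adjusted p = 0.686 over all genes). Those levels, like the normal levels of Mcpt8, cannot be told from background. Of 14 measured genes of the basophil list, Mcpt8 and Cd200r3 had an unadjusted p under 0.05 without the level filter. Of all genes 3.65% were higher at that threshold. Mcpt8 was already known to pass and the list was chosen with earlier results known, so the count is a description and not a result about basophils. The 5 list genes that were tested had changes of -0.06 to 0.21 and none had an unadjusted p under 0.05. Among them were Gata2, a transcription factor of the lineage, at 0.20, Hdc, the histamine-forming enzyme, at 0.21, and the mast cell carboxypeptidase Cpa3 at 0.10. The high-affinity IgE receptor chains Ms4a2 and Fcer1a lay under the filter with changes of 0.39 and 0.09, the cytokine Il4 at -0.04. Proteases that mark mast cells were near their normal level, with a change of 0.10 for the chymase Cma1 and -0.12 for the tryptase Tpsb2. Of 4 tested mast cell genes 0 reached an unadjusted p under 0.05. Whether the number of basophils differed was not tested.

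**Figure D2:**
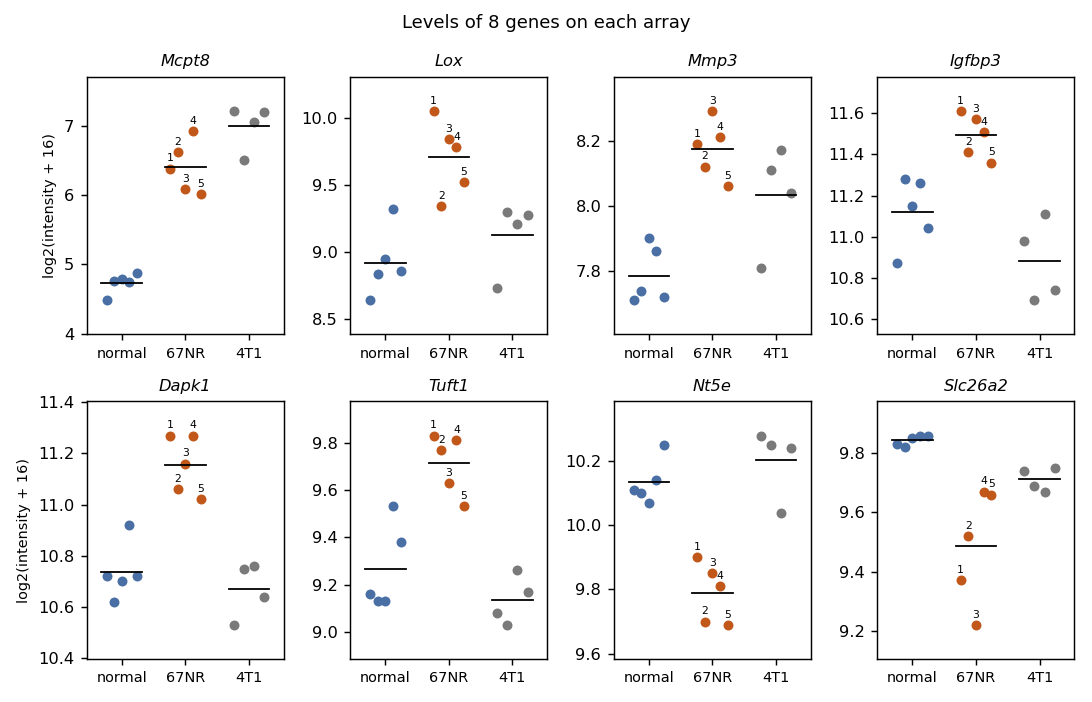
Levels of 8 genes on each array, with points for single arrays, lines for group means and the replicate number beside each 67NR point; the y axes are log2 values of intensity plus 16 and do not start at 0. Mcpt8, Lox, Mmp3, Igfbp3, Dapk1 and Tuft1 lie higher on all 5 67NR arrays than on any normal array, and Nt5e and Slc26a2 lie lower.

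Lox and Mmp3 were among the 12 genes with the smallest p-values for a higher level. Lox, the lysyl oxidase that crosslinks collagen and elastin, had levels of 10.05, 9.34, 9.84, 9.78 and 9.52 in 67NR and 8.64, 8.84, 8.95, 9.32 and 8.86 in normal lung. The lowest 67NR array, replicate 2, was just above the highest normal array, replicate 4. The change of 0.78 (SE 0.15, 1.72-fold) did not pass over all genes (limma adjusted p = 0.207). A dimmer probe set of Lox gave a similar value of 0.72, and another that was close to background gave 0.01.

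Mmp3, stromelysin, a metalloproteinase that degrades matrix proteins, had levels of 8.19, 8.12, 8.29, 8.21 and 8.06 against 7.71, 7.74, 7.90, 7.86 and 7.72. The groups were separate, and the change of 0.39 (SE 0.07) had the same adjusted p of 0.207. Igfbp3, a secreted binding protein of insulin-like growth factors, ran from 11.36 to 11.61 in 67NR and from 10.87 to 11.28 in normal lung, a change of 0.37 (SE 0.09, adjusted p = 0.295). Its other probe set gave 0.41.

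The elastin gene Eln had a mean change close to that of Lox, with overlapping groups. It had levels of 12.64, 11.99, 12.05, 11.71 and 11.51 in 67NR and 11.21, 10.82, 10.99, 11.93 and 11.34 in normal lung, a change of 0.72 (SE 0.21, adjusted p = 0.304). Normal replicate 4 reached into the 67NR range, and it was also the highest normal array for Lox. Of 19 tested genes of elastic fibres and matrix glycoproteins, 3 were higher at an unadjusted p under 0.05: Eln, the fibronectin gene Fn1 at 0.13 and the microfibril-associated Mfap4 at 0.32. Of all tested genes 4.62% were. The list median was 0.02, against -0.001 for all genes tested. Loxl1, the lysyl oxidase needed for elastic fibres, had a change of 0.30 with overlapping groups (adjusted p = 0.678).

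The structural collagens lay near their normal level. All 19 collagen chains measured were tested and their median change was -0.001, with 9 positive and 10 negative values between -0.18 and 0.12. The single chain with an unadjusted p under 0.05, which 9.13% of all tested genes had, was Col6a1 at -0.16 (adjusted p = 0.519). Among metalloproteinases and their inhibitors, 12 were tested and 2 were higher at that threshold, which 4.62% of all tested genes reached, Mmp3 and the aggrecanase Adamts5 at 0.21 (adjusted p = 0.4). The protease Adamts1 was lower, at -0.55 (adjusted p = 0.373). Its levels were 10.88 and 11.05 in 67NR replicates 1 and 3, within the normal range of 10.73 to 11.15. Replicates 2, 4 and 5 lay below that range, the highest of them at 10.16.

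The 10 other genes with the smallest p-values for a higher level had changes of 0.23 to 0.45. Dapk1, a calcium-regulated protein kinase linked to cell death, had levels of 11.27, 11.06, 11.16, 11.27 and 11.02 in 67NR and 10.72, 10.62, 10.70, 10.92 and 10.72 in normal lung. All 67NR values were higher, and the change was 0.42 (SE 0.07, 1.34-fold, limma adjusted p = 0.207). A second Dapk1 probe set gave 0.51. Tuft1, an acidic protein first described in tooth enamel, had levels of 9.83, 9.77, 9.63, 9.81 and 9.53 against 9.16, 9.13, 9.13, 9.53 and 9.38. Its groups touched at 9.53, and the change was 0.45 (SE 0.09, adjusted p = 0.207).

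Fgd5, an exchange factor for Cdc42 in endothelial cells, had a change of 0.36, Trim3, a ubiquitin ligase, of 0.35, and Rab11fip1, a Rab11 effector of recycling endosomes, of 0.34. The testis gene Tsga10 stood at 0.31, with -0.02 for a dimmer probe set. The corepressor Tle3 stood at 0.26, the aromatic amino acid transporter Slc16a10 at 0.24 and Prrg1, a membrane protein with a Gla domain, at 0.23. Each of these 7 had an adjusted p of 0.207 and groups that did not overlap. Trp53i11, a p53-induced gene, followed at 0.31 (adjusted p = 0.228).

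Ranking separate genes by size added 6 more to this side, Igfbp3 among them. Gm13889 had a change of 0.58, the potassium channel subunit Kcne2 of 0.37 and Plekho1, a PH domain protein, of 0.35. Clec4d, a C-type lectin receptor of myeloid cells, stood at 0.34 and Cxcr6, a chemokine receptor of tissue lymphocytes, at 0.34. For Plekho1 and Cxcr6 the highest 67NR array was replicate 4, at 9.80 and 8.06 against group means of 9.41 and 7.73. Their adjusted p-values and those of Gm13889 and Clec4d were 0.300, and that of Kcne2 was 0.250. In all 18 genes were named on this side, with adjusted p-values of 0.207 to 0.300.

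On the lower side Nt5e had the smallest p. It encodes CD73, the surface enzyme that makes adenosine from AMP. Its levels were 9.90, 9.70, 9.85, 9.81 and 9.69 in 67NR and 10.11, 10.10, 10.07, 10.14 and 10.25 in normal lung. The groups were separate on every array, and the change was -0.35 (SE 0.06, limma adjusted p = 0.207). A second probe set gave -0.43, and another that was close to background gave -0.03. Among 9 tested genes of adenosine and purine signalling, the nucleotide sugar receptor P2ry14 was the other one with an unadjusted p under 0.05, at -0.14. Of all tested genes 4.52% were lower at that threshold. The list median was 0.01.

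Pkig, an inhibitor of protein kinase A, had levels of 10.20, 10.38, 10.29, 10.25 and 10.51 in 67NR and 10.69, 10.59, 10.64, 10.64 and 10.54 in normal lung. Its change was -0.29 (SE 0.06, adjusted p = 0.207), and another probe set gave -0.34. Slc26a2, a sulfate transporter needed for proteoglycan sulfation, had levels of 9.37, 9.52, 9.22, 9.67 and 9.66 against 9.83, 9.82, 9.85, 9.86 and 9.86. The normal arrays lay within a narrow band and every 67NR array was under it, replicate 3 farthest, with a change of -0.36 (SE 0.07, adjusted p = 0.207). Its 2 other probe sets gave -0.31 and -0.33.

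The chromodomain protein Cdyl had a change of -0.25 (adjusted p = 0.207), but 2 dimmer Cdyl probe sets gave -0.07 and -0.02. Tshb, the beta chain of thyrotropin, had one of -0.26 and Prxl2b, a thioredoxin-fold prostamide synthase, of -0.30 (both adjusted p = 0.248). The membrane protein Tm7sf3 stood at -0.19, with 0.06 and -0.06 for its 2 next brightest probe sets, and the Rab GTPase-activating protein Tbc1d2b at -0.18 (both 0.250), the centriole protein Cntln at -0.21 (0.255) and the RNA-binding protein Khdrbs1 at -0.19 (0.268). Larger changes of this set came with overlapping groups. Sertad1, a transcriptional cofactor of the cell cycle, had a change of -0.38 (adjusted p = 0.250). Rasd2, a small GTPase of the Ras family, had levels of 7.57, 7.70, 6.85, 7.31 and 8.29 in 67NR and 8.10 to 8.80 in normal lung, a change of -0.94 (SE 0.22, adjusted p = 0.257).

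Among separate genes ranked by size, Per3 came first and is described with the clock. Tcap, a titin-binding protein of striated muscle, had levels of 9.44, 9.91, 9.87, 9.93 and 10.05 in 67NR and 10.15 to 10.35 in normal lung, a change of -0.40 (SE 0.10, adjusted p = 0.295). Of 17 tested cardiac muscle genes it was the single one lower at an unadjusted p under 0.05, and 1 was higher. Of all tested genes 4.52% were lower and 4.62% higher. Changes were positive for 13 of the 17. The mitochondrial protein Ttc19 and the membrane protein Nkain1 also stood at -0.40, as did Sptlc3, a subunit of serine palmitoyltransferase. Dimmer probe sets of Ttc19 gave -0.20 and 0.43. Zmat5, a spliceosome protein, stood at -0.38, 1500011B03Rik at -0.35, with 0.08 for its other probe set, and Mir22hg, the host transcript of miR-22, at -0.31. Adjusted p-values of these 6 ran from 0.295 to 0.350. In all 20 genes were named on this side by p or by size.

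The circadian clock held 4 of the 5 tested genes with changes above 1 in size. In each cell the activators Clock, Arntl (BMAL1) and Npas2 bind E-box sequences and switch on the Per and Cry repressors, the nuclear receptors Nr1d1 and Nr1d2 (REV-ERB) and the output factors Dbp, Tef and Hlf. Those output factors bind a second element, the D-box, which the repressor Nfil3 also binds. Because the genes cycle over the day, their level in a lung depends on when it was taken. The hour was not given in the labels, so hour and group cannot be told apart here.

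These elements were looked for in the 250 bases before each start site in RefSeq promoters of build GRCm38.p6. The E-box CACGTG, which reads the same on both strands, was in 6.02% of 32851 promoters and in at least 1 promoter of 6.86% of 27025 genes. The negative limb and output list held 13 genes, of which 11 matched a promoter and 5 had an E-box there: Bhlhe41, Ciart, Cry1, Per1 and Tef. The D-box TTATGTAA, or TTACATAA on the other strand, was in 0.819% of promoters, in 0.977% of genes, and in 1 of the 11, Per3. No other search was made, and a match is a description of these letters. Shown are windows around the matches of 5 clock genes, to set the letters beside the values that follow (for Tef, the window of 1 of its 2 promoters with a match), from 5′ to 3′ on the strand of the gene, with the matched letters in capitals.
Ciart (chr3:95882257-95882354, minus strand): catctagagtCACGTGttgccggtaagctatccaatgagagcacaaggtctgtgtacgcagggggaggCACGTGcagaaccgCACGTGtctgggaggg
Per1 (chr11:69098756-69098815, plus strand): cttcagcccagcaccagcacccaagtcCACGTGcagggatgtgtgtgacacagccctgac
Cry1 (chr10:85185082-85185141, minus strand): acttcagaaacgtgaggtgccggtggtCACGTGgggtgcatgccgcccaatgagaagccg
Tef (chr15:81811249-81811308, plus strand): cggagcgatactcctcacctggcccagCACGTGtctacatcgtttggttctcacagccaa
Per3 (chr4:151044806-151044880, minus strand): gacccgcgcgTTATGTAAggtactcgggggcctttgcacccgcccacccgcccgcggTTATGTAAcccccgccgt

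Dbp, the output factor with the widest daily swing in many tissues, had levels of 6.84, 10.87, 7.61, 10.63 and 11.80 in 67NR replicates 1 to 5 and 11.98, 11.96, 11.73, 11.66 and 11.85 in normal replicates 1 to 5. Replicates 1 and 3 lay far below all other arrays, replicates 2 and 4 lay below all normal arrays, and replicate 5 was within the normal range. The mean change was -2.28 (SE 0.74, limma adjusted p = 0.361), and the groups overlapped. Its SD was 2.19 in 67NR (n = 5) and 0.14 in normal lung (n = 5), and no other tested gene varied more among 67NR arrays.

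Hlf followed the same order with 7.41, 8.97, 7.69, 8.75 and 9.65 in 67NR and 10.14, 10.39, 10.34, 9.13 and 9.53 in normal lung, a change of -1.41 (SE 0.39, adjusted p = 0.300). Per3, a repressor of the period family whose promoter carries both D-box matches, had levels of 6.83, 8.13, 7.41, 7.97 and 8.48 against 8.80, 8.88, 9.07, 8.49 and 8.59. It was the 1 clock gene whose groups did not overlap, with replicate 5 next to the lowest normal array, and its change was -1.0 (SE 0.23, adjusted p = 0.268). The other Per3 probe sets gave -0.16 to -1.09. Per2 had a change of -1.37, Nr1d2 of -1.0, Nr1d1 of -0.96 and Tef of -0.87, all with overlapping groups.

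Genes with an E-box window differed in how far they stood from normal. Ciart, a repressor of the clock with 3 matches, had a change of -0.55 and Per1 of -0.70. Cry1, which peaks late in the cycle, had a change of -0.12 (95% interval -0.53 to 0.28), with 67NR values of 8.28, 7.86, 8.25, 8.26 and 8.24 and normal values of 7.84 to 8.78. Per1 also differed from Dbp in its arrays, since its lowest 67NR levels were 9.50 and 9.63 in replicates 4 and 2 and replicate 3 stood at 10.65. Tef, which also had a match, had a change of -0.87, and Bhlhe41, the other gene with a match, lay under the level filter at -0.16. Cry2 and Bhlhe40 were not among the genes with a match. Cry2 had a change of -0.35 and Bhlhe40, a repressor that competes for E-boxes, of -0.65.

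Of 12 tested genes of the negative limb and output 11 were lower at an unadjusted p under 0.05, where 4.52% of all tested genes were, and 0 passed over all genes. The list median was -0.92. The 12 genes share the same 10 arrays and vary together, so they do not count as 12 observations. Their mean level relative to normal lung was -1.96, -0.60, -1.44, -0.63 and -0.07 in 67NR replicates 1 to 5, and -0.03, 0.23, 0.32, -0.37 and -0.15 in normal replicates 1 to 5. Without 67NR replicates 1 and 3, a choice made after their values were seen, the list median was -0.38, Dbp had a change of -0.73 and Nr1d1 of -0.06.

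The 4 measured genes of the opposite phase had positive changes with overlapping groups, and the order of the 67NR arrays differed among them. Clock had levels of 10.11, 9.65, 10.10, 10.14 and 9.46 in 67NR and 9.29, 9.03, 9.09, 9.68 and 9.57 in normal lung, a change of 0.56 (SE 0.16, adjusted p = 0.300). Npas2, its paralogue, lay under the level filter with 8.33, 6.15, 6.95, 7.04 and 4.45 against 4.38 to 5.70, a change of 1.44 (adjusted p = 0.656 over all genes). Replicate 1 was the highest and replicate 5 the lowest 67NR array. Nfil3, also under the filter, had 7.76, 6.22, 7.61, 6.85 and 5.98 against 5.74 to 6.50, a change of 0.80 (adjusted p = 0.642 over all genes).

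The 2 Arntl probe sets disagreed. The brightest, by which the gene was tested, had a change of 0.11, with replicate 5 the highest 67NR array at 8.12. The other had levels of 9.64, 8.26, 9.42, 8.51 and 6.93 in 67NR and 7.35, 6.01, 5.92, 7.82 and 7.79 in normal lung, a change of 1.57 (SE 0.51), and did not pass over all probe sets (adjusted p = 0.676). On this probe set replicates 1 and 3 were the highest and replicate 5 the lowest of the 67NR arrays, the reverse of Dbp.

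**Figure D3:**
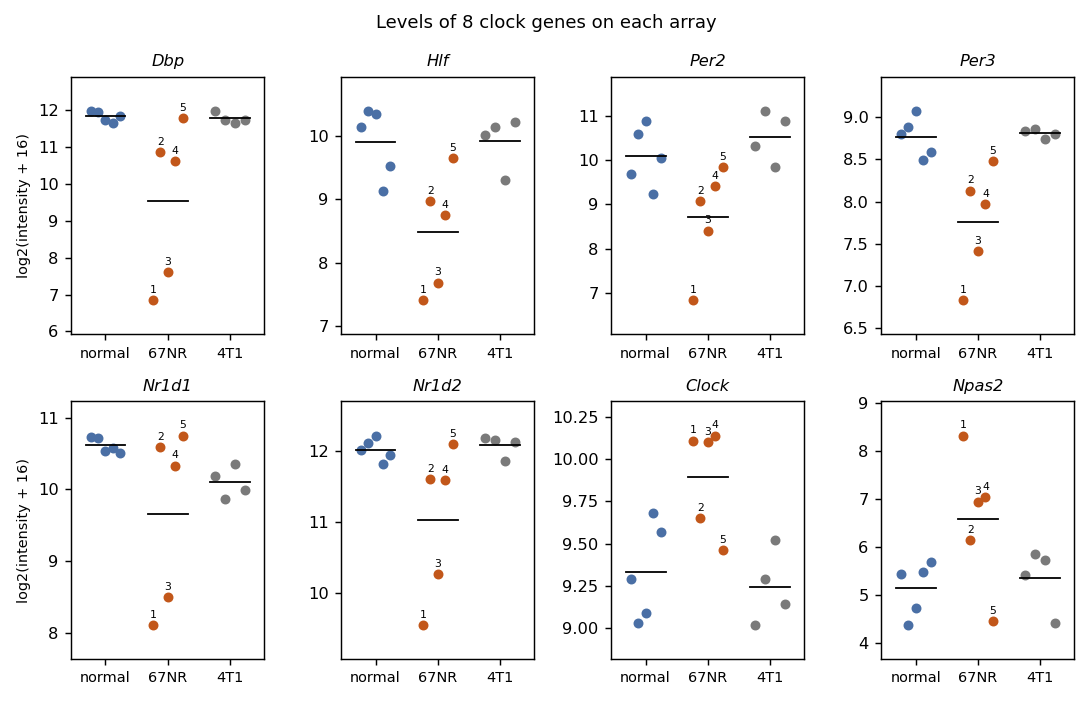
Levels of 8 clock genes on each array, with points for single arrays, lines for group means and the replicate number beside each 67NR point; y axes are log2 values of intensity plus 16 and do not start at 0. Replicates 1 and 3 are the lowest for Dbp (6.84 and 7.61), Hlf, Per2, Per3, Nr1d1 and Nr1d2.

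Genes of protein folding in the endoplasmic reticulum had mostly positive changes. The unfolded protein response raises chaperones and disulfide isomerases when secretory load grows. All 24 genes of this list were tested, and 6 were higher and 0 lower at an unadjusted p under 0.05, against 4.62% and 4.52% of all genes. The list median was 0.11 and 20 changes were positive. Pdia3, a disulfide isomerase, had levels of 11.94, 11.85, 11.91 and 11.96 in 67NR replicates 1, 3, 4 and 5, with replicate 2 above them, and 11.71, 11.73, 11.81, 11.73 and 11.61 in normal lung. Its groups were separate, with a change of 0.22 (SE 0.05, limma adjusted p = 0.228). The chaperones Hsp90b1, Hyou1 and Sdf2l1 had changes of 0.18, 0.23 and 0.28 with overlapping groups, and 0 of the 24 passed over all genes.

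Pdia6, another disulfide isomerase, had 10.71, 11.10, 10.56, 11.09 and 11.07 in 67NR and 10.60 to 10.85 in normal lung. Replicates 2, 4 and 5 stood above all normal arrays and replicates 1 and 3 did not. The list as a whole had the same order, with mean levels relative to normal lung of -0.06, 0.24, -0.06, 0.23 and 0.17 in 67NR and -0.05 to 0.09 in normal lung. Heat shock chaperones of the cytosol had a median of 0.16 over 16 tested genes. At an unadjusted p under 0.05 1 of them was higher, Hspa4l at 0.44, where 4.62% of all tested genes were. Their means ran from -0.38 to 0.54 among 67NR arrays and from -0.47 to 0.60 among normal arrays, so the groups overlapped throughout.

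Immediate early genes, which respond within minutes to stimuli and to handling of tissue, had a median of -0.20 over 19 tested genes. Their array means overlapped, at -0.32 to -0.07 in 67NR and -0.21 to 0.19 in normal lung. At an unadjusted p under 0.05 6 were lower and 0 higher, where 4.52% and 4.62% of all tested genes were, and 0 passed over all genes. Among the 6 were Egr1 at -0.54, Nr4a2 at -0.38, Klf2 at -0.34, Klf4 at -0.30 and Ier2 at -0.21. The value for Egr1 rested in part on normal replicate 1, at 11.63 against 10.25 to 10.40 in the other normal arrays and 9.74 to 10.38 in 67NR. Glucocorticoid response genes had a median of -0.19 over 18 tested, with 3 lower and 1 higher at that threshold, against the same shares of all genes. Per1 at -0.70 and Lcn2 at -0.18 were among the lower ones and are also in the clock and neutrophil lists. The list's array means ran from -0.36 to 0.15 in 67NR, within the normal range of -0.40 to 0.70. The metallothionein Mt1 had a change of -0.33. Cdkn1a, the cell cycle inhibitor p21, had one of 0.71 with levels of 10.78, 10.68, 11.74, 11.07 and 10.41 against 9.92, 10.30, 11.15, 9.93 and 9.85, where replicate 3 was the highest array of both groups.

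**Figure D4:**
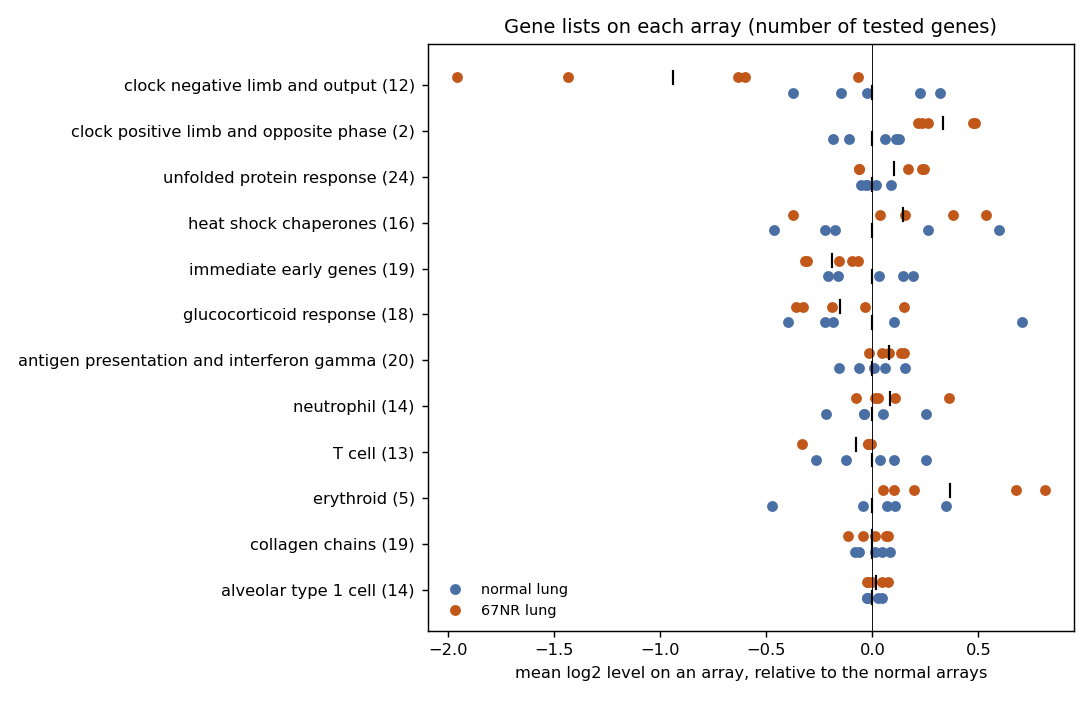
Mean level of the tested genes of 12 lists on each array, on the x axis as log2 relative to the mean of the 5 normal arrays, with points for arrays and short lines for group means. The clock negative limb spreads from -1.96 to -0.07 in 67NR, the unfolded protein response separates replicates 2, 4 and 5 at 0.17 to 0.24 from 1 and 3 at -0.06, and collagen and alveolar type 1 genes lie near 0 in both groups.

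Leaving out 67NR replicates 1 and 3, after the clock values were seen, put 11 of the 10916 genes tested past the threshold, 7 higher and 4 lower. Adamts1 had a change of -0.90 in that fit (SE 0.10, limma adjusted p = 0.0151). Pdia6 stood at 0.40, Fgd5 at 0.45, Rasgef1a, an exchange factor for Ras family GTPases, at 0.47 and the hyaluronan receptor Layn at 0.42. Adgre5 (CD97), an adhesion receptor of leukocytes, stood at 0.39, Crybg3 at 0.34 and Tsga10 at 0.38. On the lower side were Nt5e at -0.40, Sertad1 at -0.48 and Cntln at -0.28. Adjusted p-values of the 10 other than Adamts1 ran from 0.0425 to 0.0491. These are calls from 3 against 5 arrays, chosen by an outcome, and have no independent check.

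Neutrophil genes had small changes in 67NR lung. S100a8, a calprotectin subunit, had levels of 11.75, 11.11, 11.34, 11.42 and 11.15 in 67NR and 11.26, 10.55, 10.72, 11.40 and 11.47 in normal lung. The groups overlapped, and the change was 0.27 (95% interval -0.10 to 0.65, adjusted p = 0.684). S100a9, its partner, had a change of 0.26 (-0.12 to 0.64). Of 14 tested neutrophil genes 1 was higher at an unadjusted p under 0.05, Clec4d, and 1 lower, Lcn2 at -0.18. Of all tested genes 4.62% were higher and 4.52% lower. The list median was 0.06. The gelatinase Mmp9 had a change of 0.02 (-0.30 to 0.35), and its dimmer probe set gave 0.34.

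Lymphocyte and macrophage genes gave counts close to the background. T cell genes had a median of -0.13 over 13 tested, 11 of them negative. The array means overlapped, at -0.33 to -0.01 in 67NR and -0.26 to 0.25 in normal lung. The IL-7 receptor gene Il7r at -0.29 was the single one under an unadjusted p of 0.05, where 9.13% of all tested genes were. Cd8a had a change of -0.13 (95% interval -0.34 to 0.09). Gzmb, granzyme B of cytotoxic cells, had levels of 8.07, 7.88, 7.65, 8.19 and 7.97 against 7.81, 7.50, 7.73, 7.72 and 7.64, a change of 0.27 (adjusted p = 0.372). C1qc, a complement chain of macrophages, had a change of 0.21 (adjusted p = 0.300). Zbtb46, a transcription factor of dendritic cells, stood at 0.32, and Retnla, a secreted protein of alternatively activated macrophages, at -0.53.

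Antigen presentation and interferon gamma genes had positive changes for 18 of 20 tested, with a median of 0.09. Their array means ran from -0.016 to 0.147 in 67NR, within the normal range of -0.155 to 0.152. The MHC class II gene H2-Ab1, at 0.15, was the 1 with an unadjusted p under 0.05, which 9.13% of all tested genes had. For the type I interferon response the median was 0.02 over 16 tested, and Cmpk2, a mitochondrial nucleotide kinase, stood at 0.31. B cell and plasma cell genes had 0 of 14 at that threshold.

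Genes of the lung's own cells were near their normal level. Medians were 0.01 for alveolar type 1 cells, -0.03 for type 2 cells, -0.01 for ciliated cells, 0.02 for smooth muscle and pericytes and -0.03 for fibroblasts. Endothelial genes had a median of 0.07 over 22 tested, 19 of them positive. The array means overlapped, at -0.002 to 0.155 in 67NR and -0.131 to 0.077 in normal lung. At an unadjusted p under 0.05 2 were higher, among them the receptor gene Tie1 at 0.19, where 4.62% of all tested genes were. Among fibroblast genes the receptor Pdgfra stood at 0.17 and the alcohol dehydrogenase Adh1 at -0.19. Of 26 cell type lists 23 had a median under 0.1 in size.

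Markers of blood and tumour cells were read on the same arrays. Erythroid genes had a median of 0.25 over 5 tested genes, with mean levels of 0.20, 0.81, 0.10, 0.05 and 0.68 in 67NR and -0.47 to 0.35 in normal lung. Slc4a1, the red cell anion exchanger, had levels of 8.15, 8.59, 7.55, 7.41 and 8.52 against 7.58, 5.88, 7.27, 7.49 and 7.50, and a change of 0.90 (adjusted p = 0.423). The arrays highest for it, replicates 2 and 5, are not those lowest for the clock. For mammary epithelium and tumour cells 11 genes were tested, with a median of 0.06. The keratin Krt7 at 0.12 was the 1 with an unadjusted p under 0.05, which 9.13% of all tested genes had. The lung epithelium also expresses several of these keratins.

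Factors linked to the premetastatic lung were mostly near normal. Of 16 tested, 4 were higher at an unadjusted p under 0.05: Lox at 0.78, Fn1 at 0.13, haptoglobin (Hp) at 0.12 and the chemokine Cxcl1 at 0.17. Of all tested genes 4.62% were, and the list median was 0.03. Pgf, placental growth factor, lay under the filter with levels of 5.24, 5.10, 6.12, 6.40 and 6.24 against 4.74 to 5.19 and a change of 0.93 (adjusted p = 0.5 over all genes). Saa3, a serum amyloid, had a change of -0.06 (95% interval -0.41 to 0.28) and Tgfb1 one of -0.05 (-0.17 to 0.07). The complement receptor C5ar1 stood at 0.04 (-0.20 to 0.29), with 0.22 for its dimmer probe set, and Rps19, a ribosomal protein that also binds that receptor, at -0.03 (-0.11 to 0.05). The chemokine Cxcl14 had a change of -0.22 (adjusted p = 0.318).

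The direct comparison of 4T1 with 67NR lung gave 14 of the 60 tested genes named by the rules as different, where 0.760% of all tested genes were. Both tumour comparisons use the 67NR arrays on which genes were picked. A gene picked for a high 67NR level is favoured to be lower in 4T1, and one picked for a low level to be higher. Genes of prior interest were chosen with earlier results of these data known. The count is therefore a description, and its excess over the share of all genes is not a result. S100a8 was higher in 4T1 by 2.10, S100a9 by 2.22, Mmp9 by 1.26, Clec4d by 1.34 and Lcn2 by 0.50. Clec4d was at 7.65 to 7.81 in 67NR, 7.13 to 7.58 in normal and 8.91 to 9.37 in 4T1 lung. Lower in 4T1 than in 67NR lung were Igfbp3 (-0.61), Tuft1 (-0.58), Dapk1 (-0.49), Trim3 and Rab11fip1 (both -0.38), Trp53i11 (-0.35) and Slc16a10 (-0.26). Nt5e was higher in 4T1 by 0.41 and Mir22hg by 0.39.

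Of these 14, 6 passed in all alternatives run for them: Clec4d, Dapk1, Mmp9, S100a8, S100a9 and Tuft1. The number was 23 without 67NR replicate 5, 9 without 4T1 replicate 1 and 8 without 67NR replicates 1 and 3. Lox did not differ by this test, at -0.58 (adjusted p = 0.129), nor did Mmp3 at -0.14 (adjusted p = 0.462). Mcpt8 was also high in 4T1 lung, with 7.22, 6.51, 7.06 and 7.21. It lay 2.27 above normal lung there (adjusted p = 4.89e-05 over all genes), in a comparison that shares the normal arrays, and 0.59 above 67NR lung (adjusted p = 0.305 over all genes). None of the clock genes named by the rules passed, with 4T1 minus 67NR differences of 2.23 for Dbp (adjusted p = 0.244) and 1.04 for Per3 (adjusted p = 0.0735), and the 4T1 arrays lay close together for both.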

How the data were processed

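Lung RNA of 14 samples, 4 from mice with 4T1 and 5 with 67NR tumours and 5 normal, was measured with 1 array per sample. The deposited series table held linear probe set intensity values. Their summarisation and normalisation are not given in the sources used here. Gene symbols came from the 2016 annotation of the array: of 45101 probe sets, 34958 carried 1 gene symbol, 932 several and 9211 none, and 64 were controls. Values were converted to log2(intensity + 16), the brightest probe set was kept for each of 18194 genes, and the upper 60% by mean level (above 7.35) were tested. limma 3.58.1 in R 4.3.3 fitted 1 mean per group to all 14 arrays (11 residual degrees of freedom). Two-sided p-values were adjusted by Benjamini-Hochberg. The number of arrays limits the precision.

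The comparison, its 46 gene lists (742 genes, 676 measured and 511 tested) and the naming rule were chosen with earlier results of these data known. The rule named genes past the threshold with or without the level filter, the 12 smallest p-values in each direction, the 12 largest changes in each direction among separate groups, up to 4 genes per described list and genes of prior interest. Replicate numbers of 67NR and normal arrays were checked for pairing by correlating deviations from group means, which gave values between -0.29 and 0.22, so they were not treated as pairs. The steps were tested on simulated data with independent noise and the same SD of a gene in every group. Genes that vary together, or vary more among 67NR arrays, such as the clock genes, were not simulated. Alternatives covered normalisation, offsets, filters, probe set merging, variance models, array weights, a replicate block and leaving out arrays.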

Additional observations from a re-analysis of the deposited data

Results flagged for a closer look

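On 6 of 154 groups of values checked, 1 array stood apart from the others, where chance alone flags about 1 group in 20. Among 67NR arrays, replicate 1 was apart for Gm13889 (9.37, others 8.77 to 8.89) and for Tcap (9.44, others 9.87 to 10.05). Replicate 5 was apart for Nkain1 (8.67, others 8.31 to 8.41), replicate 3 for Zmat5 (7.2, others 7.89 to 7.94), and replicate 2 for Cry1 (7.86, others 8.24 to 8.28). The mean level of T cell genes relative to normal was -0.33 in replicate 4 and -0.02 to -0.01 in the others.

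Between 4T1 and 67NR lungs 14 named genes differed by the direct test (limma adjusted p, 4T1 minus 67NR). They were S100a9 (2.22, adjusted p = 1.37e-05), S100a8 (2.10, 2.30e-05), Clec4d (1.34, 3.19e-06), Mmp9 (1.26, 0.00110), Lcn2 (0.50, 0.00902), Nt5e (0.41, 0.00521) and Mir22hg (0.39, 0.0400) on the higher side. On the lower side were Igfbp3 (-0.61, 0.00944), Tuft1 (-0.58, 0.00730), Dapk1 (-0.49, 0.00517), Trim3 (-0.38, 0.0357), Rab11fip1 (-0.38, 0.0239), Trp53i11 (-0.35, 0.0357) and Slc16a10 (-0.26, 0.0393).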

How the results depend on the processing

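The count of 0 genes in 67NR against normal lung became 1 without the filter on dim genes, 1 with every probe set and 11 without 67NR replicates 1 and 3 together, which was chosen after seeing the data; it stayed at 0 in the 14 fits that left out 1 array (smallest adjusted p 0.0602 to 0.462) and in the other settings. With the replicate number as a block over the 10 arrays 0 genes passed (smallest adjusted p 0.578, 832 genes at an unadjusted p under 0.05), and Mcpt8 no longer passed (1.68, adjusted p = 0.808). No pairing of the replicate numbers was seen. With an offset of 64 Mcpt8 was at 0.84 (adjusted p = 0.115). The 14 named genes that differ between 4T1 and 67NR became 9 without the filter, 26 with array weights, 8 without 67NR replicates 1 and 3, and 9 to 23 in fits that left out 1 array. Near-zero changes turned sign. With 1 array left out, Mmp9 ran from -0.031 (without 67NR replicate 5) to 0.094, and was negative without any one of 67NR replicates 1 and 5 and normal replicates 1 and 3. Saa3 ran from -0.20 to 0.011 (without 67NR replicate 4) and was also positive without normal replicate 3, and C5ar1 ran from -0.034 (without normal replicate 4) to 0.13. Without 67NR replicates 1 and 3 C5ar1 was at -0.031. The cause was not tested. Of 2718 alternative values of named genes, 2703 kept direction and side of the threshold. None of these genes passed in the main fit, so keeping the side means that they still did not pass. Many were picked by p or by separate groups on these same arrays, which favours the same direction. The count is therefore no measure of how firm the changes are. Of 1242 list medians, 1223 moved by less than 1 SD of the list's mean level among 67NR arrays. That bound is loose for lists that vary much among those arrays. For the clock negative limb it was 0.75, so the move of its median from -0.92 to -0.38 without 67NR replicates 1 and 3 stayed within it. Dim genes such as Mcpt8 are limited by background, since no detection calls were used.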
